A study of Mus musculus with 92 samples.

Results

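The level of 9 RNA-binding proteins that regulate alternative splicing in skeletal muscle was followed from 3 h to 28 days after a freeze injury. The 9 genes, Mbnl1, Mbnl2, Mbnl3, Celf1, Celf2, Ptbp1, Rbfox1, Rbfox2 and Rbm24, were chosen by symbol, and each had 1 row among the 23811 rows of the gene table and 15 rows in all among the 26848 rows of the isoform table. The unit in both tables was FPKM, fragments per kilobase of transcript scaled to the mapped fragments of the library, so levels are per length and can be set side by side between genes. Of the 9 genes, 8 had a group with a mean of 1 FPKM or above and so were tested, among 12099 genes, and Mbnl3 did not.

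The mice were male C57BL/6J animals of a single strain. In each mouse the tibialis anterior of the left hindlimb, which lifts the foot, was frozen with a cold steel probe, and the right tibialis anterior of the same animal stayed uninjured and served as control. Every mouse had anesthesia and an analgesic, and a control leg came from an animal with a wound in the opposite leg. Both groups had 5 libraries at 10, 24 and 72 h and at 14 and 28 days. There were 2 injured and 3 control libraries at 3 h, 3 and 4 at 48 h and again at 7 days, and 4 and 3 at 21 days. Both legs came from 36 of the mice. Each library came from the RNA of a portion of the muscle, in which fewer cells of a type and less RNA per cell cannot be told apart.

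Muscleblind-like proteins (Mbnl) and CELF proteins (Celf) bind pre-mRNA near alternative exons and often push the same exon in opposite directions, Mbnl towards the adult and Celf towards the fetal form. In myotonic dystrophy, MBNL proteins are trapped on expanded CUG repeats and CELF1 is raised, and fetal exons return in adult muscle. Rbfox proteins bind the word UGCAUG and promote adult muscle exons, Rbm24 favours inclusion of muscle exons, and Ptbp1, the polypyrimidine tract binding protein, represses many muscle and neuronal exons in proliferating cells and falls during differentiation.

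In mm9 coordinates Mbnl1 lies at chr3:60276752-60433670, Mbnl2 at chr14:120674891-120830920, Mbnl3 at chrX:48466671-48559009, Celf1 at chr2:90780554-90859654 and Celf2 at chr2:6460744-7317825. Ptbp1 lies at chr10:79317350-79327178, Rbfox1 at chr16:5884886-7412573, Rbfox2 at chr15:76909420-77137483 and Rbm24 at chr13:46513669-46526468. Each value is the level of the whole gene unless an isoform row is named.

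The marker genes of the fiber were present in both legs: the summed level of 10 fiber genes such as Acta1 and Ckm ran from 50862 to 99639 FPKM in the 39 control libraries and from 6653 to 92398 FPKM in the 37 injured ones. Some libraries listed Acta1, Ckm, Mylpf, Atp2a1, Pvalb or Tnnt3 at 0, and these zeros are in the sum. The 4 fiber genes with no 0 in any library, Actn3, Myh1, Myh2 and Ryr1, summed to 590.5 to 3822 FPKM in control and 932.9 to 3137 FPKM in injured legs. The medians of that sum were 2856 FPKM in control and 2182 FPKM in injured legs, and the lowest control value was at 72 h. Some libraries stood apart. The control library of animal 2 at 72 h held 5611 genes above 1 FPKM against 8550 to 9580 in the other control libraries, and the libraries of both legs of animal 2 at 7 days summed to 755535 FPKM in the control and 828110 FPKM in the injured leg, against at most 523947 in the others. Across all genes tested, the median log2 difference between injured and control legs was −0.28 at 3 h, climbed through 0.20, 0.29 and 0.63 to 1.01 at 72 h, and returned through 0.31 at 7 days to 0.17 at 14 days. It was 0.16 at 72 h when libraries were scaled to their upper quartile. Each member's difference is therefore to be read against the median of its time point, which is not repeated at each value. The same holds for counts of mice with a higher or lower level and for groups that do not overlap. Their share over all genes is not given here. Mbnl1 was listed at 0 in both tables in the injured legs of animal 5 at 24 h and animal 3 at 72 h, and those values were treated as missing.

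In uninjured muscle the members were spread over a wide range. Mbnl1 was highest at 64.8 ± 12.6 FPKM (SD, n = 39), followed by Mbnl2 at 35.0 ± 9.0, Rbfox1 at 34.0 ± 8.57, Rbm24 at 32.3 ± 6.68, Celf1 at 13.2 ± 3.42, Rbfox2 at 6.62 ± 1.70, Celf2 at 5.27 ± 1.48, Ptbp1 at 2.08 ± 0.51 and Mbnl3 at 0.0279 ± 0.0161 FPKM. Mbnl1 exceeded Mbnl2 in 39 of 39 control libraries and Rbm24 exceeded Celf1 in 39 of 39. Mbnl2, Rbfox1 and Rbm24 could not be put in order: Mbnl2 exceeded Rbfox1 in 20 of the 39 libraries and Rbfox1 exceeded Rbm24 in 26. Rbfox2 exceeded Celf2 in 30 of 39, and Celf2 exceeded Ptbp1 in 38 of 39. In the injured legs Rbm24 exceeded Rbfox1 in 32 of 37 libraries. Ptbp1 averaged 8.03 ± 6.96 FPKM there (n = 37) and could not be put in order with Celf2, which it exceeded in 20 of 37 libraries.

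**Figure D1:**
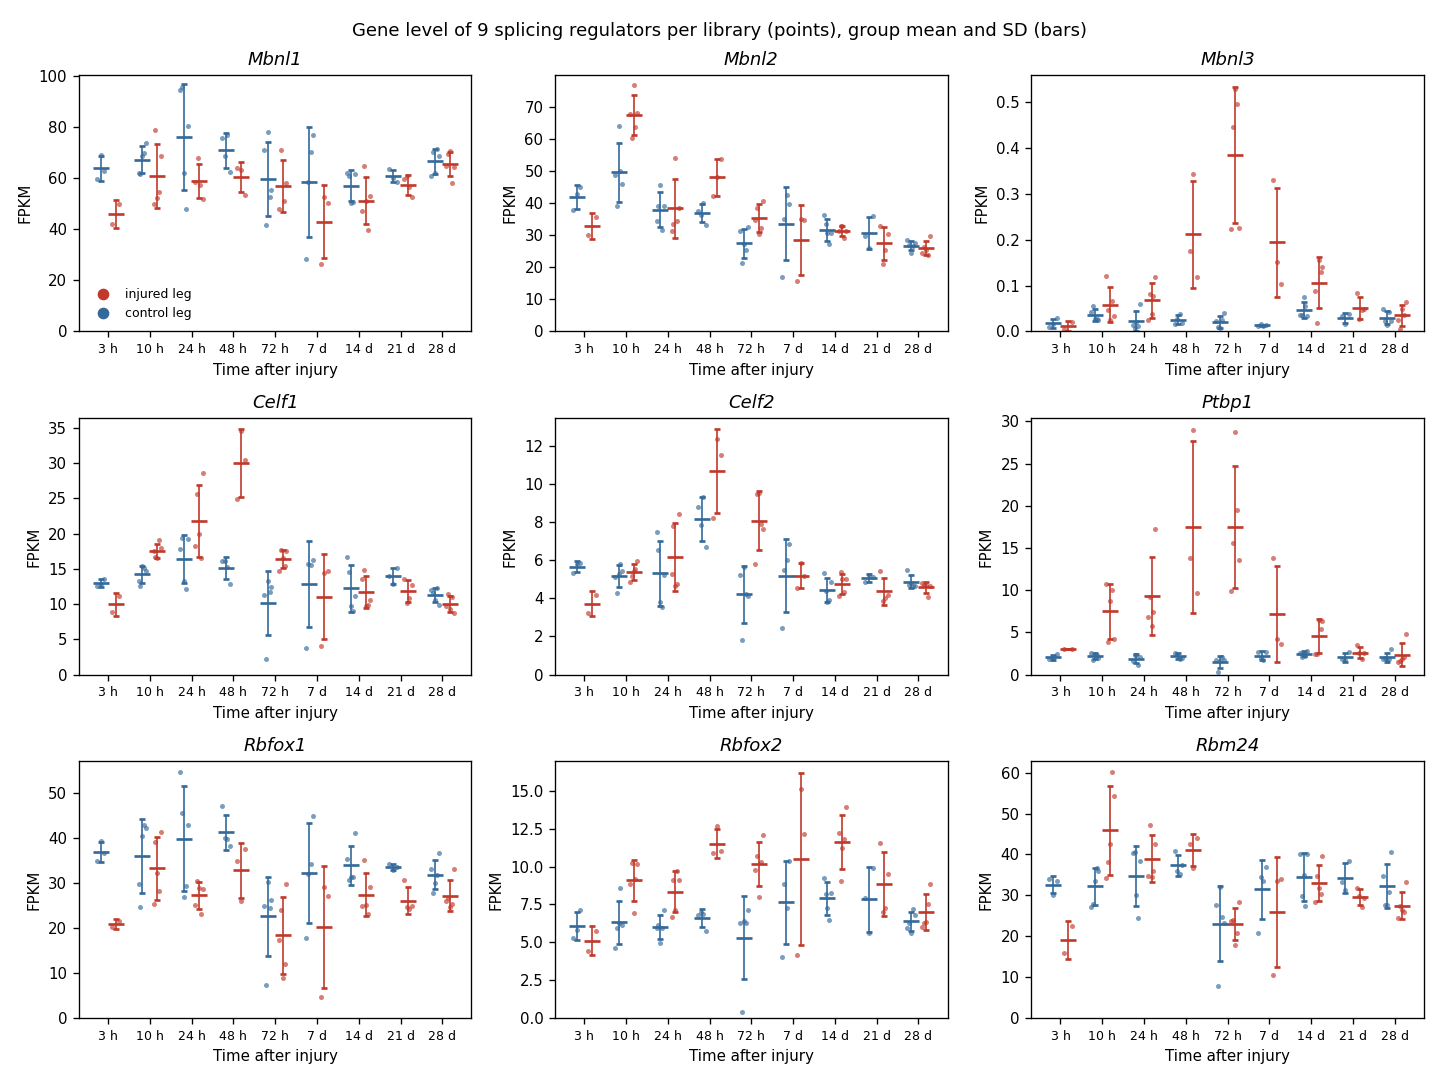
Gene level in FPKM (vertical axis, from 0, a separate scale for each gene) against time after injury, with 1 point per library, injured legs in red and control legs in blue, and the group mean and SD as bars. In the injured legs Ptbp1 climbs to a mean of 17.5 FPKM at 48 h, holds it at 72 h and comes back. Mbnl3 climbs in them to 72 h and comes back. Rbfox2 sits above its control from 10 h to 14 days, and Mbnl1 and Rbfox1 have injured means below their control means at all 9 time points.

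Ptbp1, the repressor, had the largest called difference among the 8 members tested. It was called higher in injured legs from 10 h to 7 days, where a call needed a Benjamini-Hochberg adjusted p under 0.05 in limma and a difference of at least 2-fold. By 72 h the injured legs held 9.89, 13.6, 15.6, 19.5 and 28.8 FPKM, and the control legs 0.359, 1.62, 1.69, 1.79 and 2.04. Every injured leg lay above every control leg, and the mean rose from 1.5 ± 0.66 to 17.5 ± 7.21 FPKM (SD, n = 5 each). The fitted log2 difference was 3.54 ± 0.34 (SE, adjusted p = 4.4e-14), a difference of 11.6-fold, against a median of 1.01 over all genes. Without the control of animal 2 at 72 h and the 7-day libraries of animal 2 it was 3.13 (adjusted p = 1.6e-13). With upper quartile scaling it was 2.68 and with quantile normalization 2.43, the lowest of the 25 alternatives, and it was called under each.

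The rise was already present at 10 h, when the injured legs held 3.89, 4.19, 8.66, 10.1 and 10.8 FPKM and the control legs 1.76 to 2.61 (log2 difference 1.59 ± 0.34, adjusted p = 0.000285). At 24 h the injured legs held 5.77, 6.88, 7.46, 9.20 and 17.3 FPKM against 1.17 to 2.35 (2.16 ± 0.34, adjusted p = 6.22e-07). At 48 h they held 9.62, 13.8 and 29.0 FPKM against 1.86 to 2.61 (2.78 ± 0.41, adjusted p = 8.12e-08). The groups did not overlap at any of these times, nor at 3 h, when 3.00 and 3.07 FPKM stood above 1.84, 1.87 and 2.39 without passing the test (0.56 ± 0.49, adjusted p = 0.581).

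At 7 days the injured legs held 3.62, 4.24 and 13.8 FPKM against 1.75 to 2.73 in control legs, and the call (1.38 ± 0.41, adjusted p = 0.00693) rested on animal 2: without its injured library the difference was 0.79 (adjusted p = 0.307, and 6.55e-08 to 0.307 over all alternatives). It also fell under 2-fold with quantile normalization (0.98, adjusted p = 0.00582) and did not pass with the time point fitted alone (adjusted p = 0.171). At 14 days the injured legs held 2.45 and 2.49 FPKM in animals 2 and 1 and 5.42, 6.34 and 6.47 FPKM in animals 4, 5 and 3, over control legs of 2.09 to 2.83 (0.77 ± 0.34, adjusted p = 0.185). At 21 and 28 days the differences were 0.31 ± 0.41 and 0.09 ± 0.34, neither of which passed. Ptbp1 was higher in the injured leg in 32 of 36 mice over all times, a count with no share over all genes beside it.

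Of the 8 members tested, 1 was called higher at 10, 24 and 48 h and at 7 days and 2 at 72 h. Among all genes tested the share called higher was 11.8% at 10 h and 17.6% a day after injury, then 33.1% at 48 h, 50.2% at 72 h and 21.6% at 7 days, so the members' counts lie near or under that background. No member was called at 3 h, where 1.74% of genes were called in either direction, at 14 days (2.93%), at 21 days (0.00827%) or at 28 days (0.0827%). At an unadjusted limma p under 0.05, 2 members were lower at 3 h, 1 was higher at 14 days and 0 differed at 21 or 28 days. At an adjusted p under 0.05 with no fold limit, 2 of the 8 members were higher at 48 h and 5 at 72 h. The share of all genes passing that way is at least the share called higher.

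Markers of several other cell types moved with Ptbp1. The summed level of 6 macrophage genes (Cd68, Emr1, Csf1r, Lyz2, C1qa and Itgam), none of them at 0 in any library, was 11.9 to 57.5 FPKM in control legs and 1481 to 5990 in injured legs at 72 h, and 6 of 6 were called higher. Over the 18 group means the Pearson correlation of Ptbp1 with that sum was 0.89, with the sum of 6 myoblast and new fiber genes (Pax7, Myod1, Myog, Myh3, Myh8 and Tmem8c) 0.84, and with the sum of the 10 fiber genes −0.76, or −0.47 with the sum of the 4 fiber genes that had no 0. For the other marker sums it was 0.74 (smooth muscle), 0.73 (neutrophil), 0.58 (fibroblast), 0.51 (T cell), 0.39 (endothelial), 0.28 (red cell), 0.20 (adipocyte) and 0.08 (Schwann cell). These correlations describe groups that share libraries and library scaling. The myoblast sum at 72 h was 2.4 to 22.4 FPKM in control and 49.8 to 117.7 in injured legs, with Tmem8c at 0 in 8 control libraries. The part of these cell types in the Ptbp1 result was not tested.

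The genes whose group means followed Ptbp1 most closely were Prkci (r = 0.994), Elovl1 (0.993) and Gnai3 (0.993), over 18 group means. Prkci encodes an atypical protein kinase C, Elovl1 an enzyme of fatty acid elongation and Gnai3 a G protein subunit. In the isoform table Ptbp1 had 1 row, which carried 47.5% of the gene level at the median and was called higher at the same 5 time points, when 10.5%, 16.5%, 31.8%, 49% and 20.9% of all isoform rows tested were. It held 7.46 ± 3.38 against 0.495 ± 0.390 FPKM at 72 h (n = 5 each; log2 difference 3.95, adjusted p = 6.92e-12). The call on this row at 7 days (1.37, adjusted p = 0.0400) was lost without the injured library of animal 2 (0.73, adjusted p = 0.529), without the control of animal 2, 3 or 4 (0.0551 to 0.146) and under both scalings (0.0594 and 0.0974). At 10 h (1.37, adjusted p = 0.0209) it was lost in 4 of the 10 fits that left out 1 library, those without control 2 or injured 1, 3 or 4, with 0.0965 as the highest adjusted p.

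**Figure D2:**
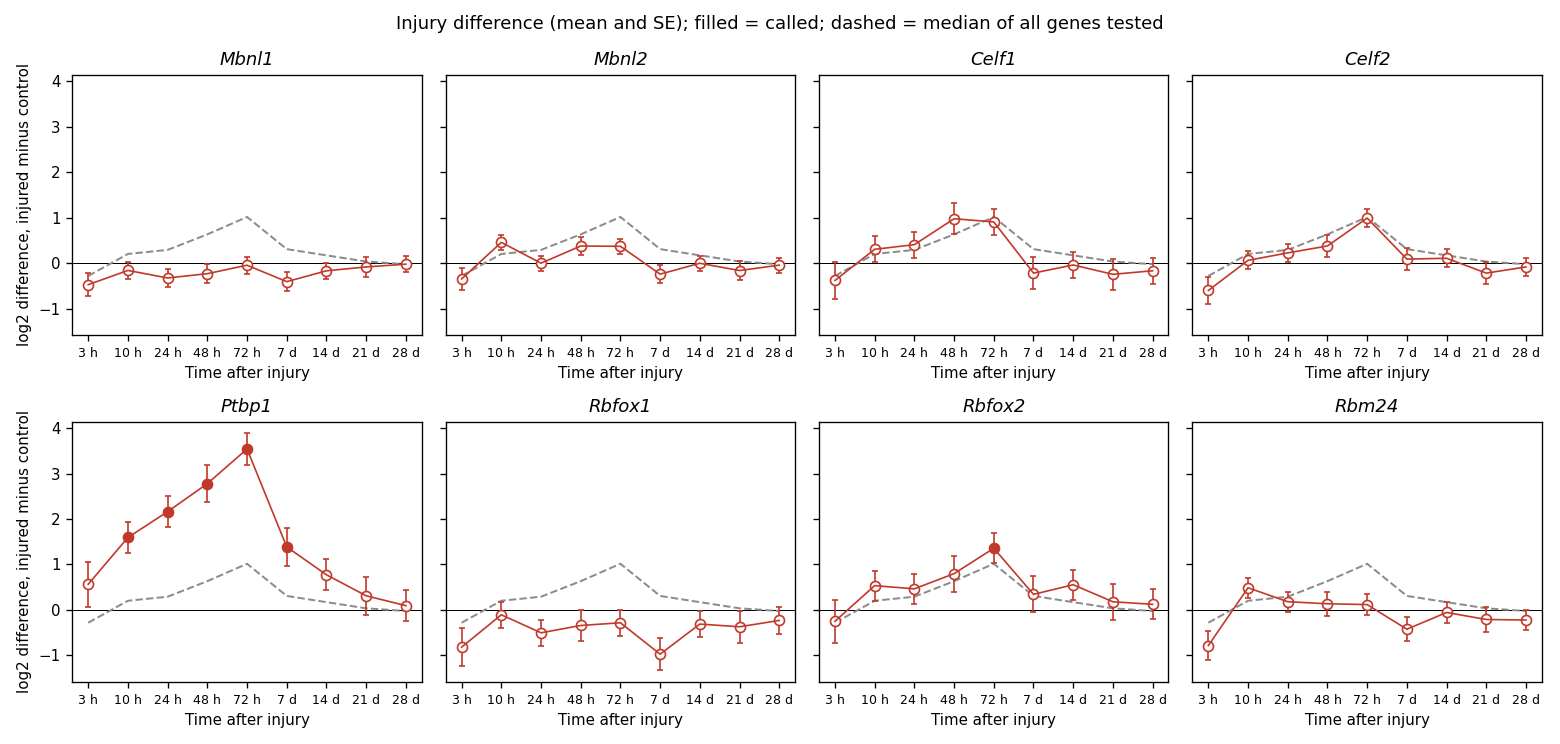
Log2 difference, injured minus control (vertical axis, with 1 scale for all panels), with its SE at each time after injury for the 8 members tested; filled points were called and the dashed line is the median of all genes tested. Ptbp1 lies above the dashed line at all 9 time points, and Rbfox1 lies below it at all 9.

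The Mbnl genes promote adult exons. Mbnl1, the main member in adult fibers, changed little: its injured mean was below its control mean at all 9 time points, it was lower in the injured leg in 26 of the 34 mice in which both legs could be compared, and it passed the test at none of them. At 3 h the injured legs held 42.3 and 49.8 FPKM and the control legs 59.7, 62.8 and 69.3, which did not overlap (log2 difference −0.48 ± 0.26, adjusted p = 0.461). The 4 injured legs with a value at 72 h held 47.8, 51.3, 58.3 and 71.0 FPKM and the control legs 41.7 to 78.0 (−0.05 ± 0.19, adjusted p = 0.829). At 7 days it averaged 43.0 ± 14.4 against 58.5 ± 21.6 FPKM (−0.41 ± 0.22, adjusted p = 0.136), and at 28 days 65.6 ± 4.87 against 66.7 ± 4.90. Against a gene table whose median rose by 1.01, Mbnl1 at 72 h stood lower relative to the other genes: with upper quartile scaling its difference was −0.91 (adjusted p = 0.000100) and with quantile normalization −0.57 (adjusted p = 0.0127).

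Mbnl2, the second muscleblind gene of adult muscle, was modestly higher at 10 h and at 72 h. At 10 h the injured legs held 60.4, 63.7, 67.7, 67.9 and 76.8 FPKM against 39.0, 46.0, 48.6, 49.9 and 64.0 in control legs (0.46 ± 0.17, adjusted p = 0.0412), and the groups overlapped in 1 control library. At 72 h they held 30.5 to 40.7 against 21.2 to 32.5 FPKM (0.37 ± 0.17, adjusted p = 0.0415). Both stayed under 2-fold, and at least 11.8% of all genes passed upward at 10 h and 50.2% at 72 h, the shares called. The one at 10 h no longer passed in 8 of the 10 fits that left out 1 library, all but those without control 3 or injured 2, nor with upper quartile scaling (0.20, adjusted p = 0.472) or quantile normalization (0.30, adjusted p = 0.236), and passed more clearly with each mouse as a replicate block (adjusted p = 0.000575). The one at 72 h no longer passed in 6 of 10 such fits, those without control 2, 3 or 4 or injured 1, 2 or 5. With upper quartile scaling the difference at 72 h was −0.55 (adjusted p = 0.0118), so its direction at that time depends on how libraries are scaled. At 48 h 42.0, 48.2 and 53.7 FPKM stood above 33.3 to 40.1 (0.38 ± 0.20, adjusted p = 0.109), and this passed with each mouse as a replicate block (0.37, adjusted p = 0.0122). The single Mbnl2 row of the isoform table, with 7.2% of the gene level, was called higher at 48 h (4.77 ± 0.56 against 1.3 ± 0.14 FPKM) and 72 h (2.99 ± 1.11 against 1.26 ± 0.86). At 72 h the call (1.67, adjusted p = 0.0112) rests on the control of animal 2, without which the difference was 0.87 (adjusted p = 0.170). At 48 h (1.80, adjusted p = 0.0337) it was lost in 5 of the 7 fits that left out 1 library, those without control 2 or 5 or any injured library (adjusted p 0.0525 to 0.0983). Upper quartile scaling gave adjusted p = 0.175 at 48 h and 0.139 at 72 h, and quantile normalization 0.254 and 0.588. With each mouse as a replicate block the adjusted p was 0.000737 at 48 h and 2.5e-05 at 72 h, and the row was called at 10 h as well (1.14, adjusted p = 0.00862).

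The ratio of Mbnl2 to Mbnl1 within a library does not depend on library scaling. It was higher in the injured leg in 28 of 34 mice, including all 18 compared from 3 h to 72 h. At 10 h the log2 ratio was 0.16 ± 0.37 in injured and −0.46 ± 0.24 in control legs (SD, n = 5 each; exact permutation p = 0.0238), at 48 h −0.33 ± 0.31 (n = 3) against −0.94 ± 0.05 (n = 4; exact permutation p = 0.0286, the smallest that design allows), and at 72 h −0.63 ± 0.19 (n = 4) against −1.10 ± 0.28 (n = 5; exact permutation p = 0.0317). After adjustment over the 36 ratio tests these p were 0.0791, 0.0791 and 0.0816. At 28 days the ratio was −1.34 ± 0.14 in injured and −1.31 ± 0.13 in control legs.

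Mbnl3, which in mouse muscle is a gene of myoblasts and embryonic muscle, stayed near the bottom of the range and still separated the legs. By 72 h injured legs held 0.224, 0.225, 0.446, 0.497 and 0.528 FPKM and the control legs 0.00784 to 0.0407. At 48 h they held 0.119, 0.174 and 0.342 against 0.0172 to 0.0386 FPKM, and at 7 days 0.103, 0.152 and 0.329 against 0.0121 to 0.0156. The groups did not overlap at these 3 times. The ratio of means was 17.9 at 72 h, 14.6 at 7 days and 8.33 at 48 h.

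In the fit without a filter on low values, which tested 23811 genes and called 30.7% of them higher at 72 h, 19.5% at 48 h and 13.6% at 7 days, Mbnl3 was called higher at 72 h (log2 difference 1.94 ± 0.18, adjusted p = 6.21e-14), 48 h (1.25 ± 0.22, adjusted p = 5.22e-06) and 7 days (1.31 ± 0.22, adjusted p = 7.93e-06). The differences are on the log2(FPKM + 0.1) scale, which understates the change of a gene this low. Exact permutation tests gave p = 0.00794, 0.0286 and 0.0286, the smallest these designs allow, and 0.0714 to 0.0857 after adjustment over the 9 time points. Mbnl3 was higher in the injured leg in 28 of 36 mice. Its ratio to Mbnl1, with 0.1 FPKM added to both genes, was higher in 30 of 34 mice. That addition is larger than the mean of Mbnl3 in control legs, 0.0279 FPKM, so the ratio also moves with Mbnl1 alone. At 3 h the ratio was higher in 2 of 2 mice, while Mbnl3 itself was lower in 2 of 2.

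The isoform table held 2 rows for Mbnl1 that share their end and differ in their start, on chromosome 3 of the mm9 build, plus strand. The upstream row spans chr3:60276752-60433670 and the downstream row chr3:60305174-60433670. The sequence before each start is shown because the balance of the 2 rows is one of the results below. Each is 250 bases ending at the base before the start, read from the mm9 genome, and capitals mark every match on either strand to 4 words: CAGCTG, an E-box bound by MyoD family factors, then TATAAA, the TATA box, then CCAAT, the CCAAT box, and last GGGCGG, the GC box.
Mbnl1 upstream start, chr3:60276502-60276751: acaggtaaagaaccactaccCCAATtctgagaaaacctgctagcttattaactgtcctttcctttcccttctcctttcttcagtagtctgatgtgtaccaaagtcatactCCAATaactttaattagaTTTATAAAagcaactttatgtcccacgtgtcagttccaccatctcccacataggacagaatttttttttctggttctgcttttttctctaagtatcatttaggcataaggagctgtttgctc
Mbnl1 downstream start, chr3:60304924-60305173: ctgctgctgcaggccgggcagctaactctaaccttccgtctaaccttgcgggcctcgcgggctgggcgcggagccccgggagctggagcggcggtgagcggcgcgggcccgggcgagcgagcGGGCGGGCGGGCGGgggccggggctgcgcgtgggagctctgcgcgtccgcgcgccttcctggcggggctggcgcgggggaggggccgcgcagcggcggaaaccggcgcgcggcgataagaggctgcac

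The 2 stretches are unlike in base composition: 38.0% of the bases before the upstream start are G or C, and 79.2% of those before the downstream start. Among 23578 windows of the same length before the starts in the isoform table, 7.9% had less G and C than the upstream window and 97.8% had less than the downstream one, and the median was 55.6%. The upstream window holds 2 matches to CCAAT and 2 overlapping matches to TATAAA, and the downstream window 3 overlapping matches to GGGCGG. Of all windows, 35.0% held CCAAT, 11.7% TATAAA, 43.3% GGGCGG and 12.4% CAGCTG. The GENCODE annotation of this build has transcripts that begin at the downstream start, and its nearest transcript to the upstream start begins 280 bases further on. Neither window touches an annotated Mbnl1 exon.

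In control legs the downstream row was the higher on average, at 19.4 ± 5.99 against 9.22 ± 3.46 FPKM (SD, n = 39). The 2 rows together carried 45.9% of the Mbnl1 gene level at the median, so other Mbnl1 transcripts are not shown by them. The upstream share of the 2 rows was 44.5%, 52.0% and 52.2% in injured legs at 48 h and 22.5%, 28.5%, 31.0% and 37.4% in control legs. At 72 h it was 53.9%, 63.5%, 70.3% and 77.8% in injured and 30.0%, 32.4%, 35.2%, 56.8% and 60.3% in control legs, the last from the control of animal 2. The groups were apart at 48 h and overlapped at 72 h, and the means at 28 days were 51.0% ± 6.7 and 43.1% ± 5.4 (n = 5 each).

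The downstream row was called lower at 7 days (−2.81, adjusted p = 0.00533, with 2.59% of isoform rows called lower), with 0.000237, 8.86 and 11.6 FPKM in injured legs against 5.23, 16.3, 23.7 and 26.9 in control legs. The call rests on the lowest value, from animal 2: without that library the difference was −0.59 (adjusted p = 0.700, and 0.000167 to 0.700 over all alternatives). The upstream row was called higher at 72 h, at 20.4 ± 2.88 (n = 4) against 9.24 ± 5.86 FPKM (n = 5; log2 difference 1.55 ± 0.47, adjusted p = 0.00316), while the downstream row stood at 10.6 ± 4.23 against 14.4 ± 8.46 (0.10 ± 0.70, adjusted p = 0.914). With upper quartile scaling the upstream difference was 0.62 (adjusted p = 0.197) and with quantile normalization 0.66 (adjusted p = 0.125), and without the control of animal 2 it was 0.91 (adjusted p = 0.0588). A test of whether the 2 rows changed unequally (limma diffSplice, over 1184 genes with 2 or more isoforms) passed at 7 days alone (adjusted p = 0.0287, with 8.78% of the genes passing), and that rests on the injured leg of animal 2, whose downstream row was listed at 0.000237 FPKM: without it the adjusted p was 0.778. At 72 h, with 15.9% of genes passing, the adjusted p was 0.286. Without the control of animal 2 at 72 h and both legs of animal 2 at 7 days, it was 0.0237 at 72 h and 0.530 at 7 days.

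**Figure D3:**
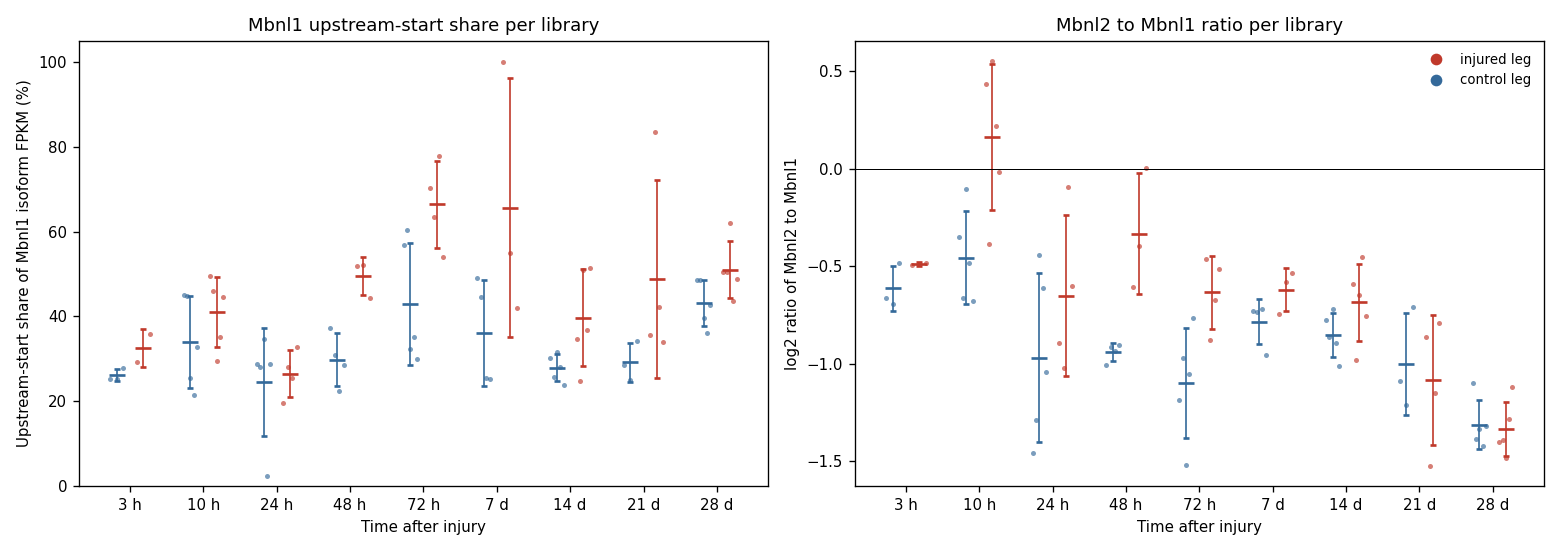
Left, the share of the upstream-start row in the 2 Mbnl1 isoform rows (percent, from 0); right, the log2 ratio of Mbnl2 to Mbnl1; both per library against time after injury, injured legs in red and control legs in blue, with group mean and SD. At 72 h the upstream share is 53.9% to 77.8% in injured and 30.0% to 60.3% in control legs, and the ratio is highest in injured legs at 10 h, at 0.16 on average.

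Both Celf genes, whose proteins favour fetal exons, passed the test at 72 h, and Celf1 at 48 h as well. Passing needs no 2-fold difference, so at least 50.2% of all genes passed upward at 72 h and 33.1% at 48 h, the shares called. Celf1 was higher at 48 h, with 25.0, 30.4 and 34.5 FPKM in injured legs against 12.9, 15.3, 16.2 and 16.2 in control legs (log2 difference 0.98 ± 0.34, adjusted p = 0.0141). The groups did not overlap, and the difference of 1.97-fold fell just short of a call; with each mouse as a replicate block it was called (1.01, adjusted p = 0.00158, and 2.67e-08 to 0.259 over all alternatives). It did not pass with upper quartile scaling (0.42, adjusted p = 0.259), with quantile normalization (0.52, adjusted p = 0.131) or without the injured leg of animal 4 (adjusted p = 0.0775). At 72 h the injured legs held 14.8 to 17.7 FPKM and the control legs 2.20, 11.4, 11.8, 12.5 and 13.2 (0.91 ± 0.29, adjusted p = 0.00374), and the control of animal 2 set much of that size: without it and the 7-day libraries of animal 2 the difference was 0.42 (adjusted p = 0.00647), and without that control alone it did not pass (adjusted p = 0.114). It was 0.00 with upper quartile scaling and −0.03 with quantile normalization, neither of which passed. Celf1 exceeded its control at 10 h as well, with 16.5 to 19.1 against 12.6 to 15.4 FPKM and no overlap, without passing (0.30 ± 0.29, adjusted p = 0.520).

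The injured legs of Celf2 at 48 h held 8.19, 11.5 and 12.3 FPKM against 6.68 to 9.30 in control legs (0.38 ± 0.24, adjusted p = 0.185). At 72 h they held 5.77, 7.65, 7.88, 9.46 and 9.51 against 1.82, 4.13, 4.22, 5.22 and 5.65 FPKM, with no overlap (0.99 ± 0.20, adjusted p = 1.4e-05). The median of all genes at 72 h was 1.01, and with quantile normalization it was −0.19 (adjusted p = 0.249) and with upper quartile scaling 0.09 (adjusted p = 0.619). At 7 days neither gene passed, with 11.1 ± 6.02 against 12.9 ± 6.04 FPKM for Celf1 (−0.22 ± 0.34) and 5.19 ± 0.653 against 5.19 ± 1.91 for Celf2 (0.09 ± 0.24). Celf1 was 4.10, 14.4 and 14.6 FPKM in the injured legs. It was 3.82 in the control of animal 2 and 15.6 to 16.3 in the other controls.

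Within a library the ratio of Celf2 to Celf1 was lower in injured legs at the early times. At 10 h the log2 ratio was −1.69 ± 0.11 against −1.44 ± 0.09 (n = 5 each; exact permutation p = 0.00794, adjusted 0.0571) and at 48 h −1.49 ± 0.10 (n = 3) against −0.89 ± 0.14 (n = 4; exact permutation p = 0.0286, adjusted 0.0791). All injured legs lay below all control legs at 3, 10 and 48 h. At 3 h, with 2 against 3 libraries, the exact permutation p was 0.1, the smallest that design allows. The ratio at 72 h was −1.03 ± 0.22 against −1.12 ± 0.52 and at 28 days −1.11 ± 0.22 against −1.19 ± 0.13.

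In the isoform table Celf1 had 1 row with 22.4% of the gene level and Celf2 4 rows with 4.9%, so their isoforms say little about the genes. The row of Celf1 was called higher at 72 h (2.80 ± 0.784 against 1.83 ± 1.22 FPKM), and 1 row of Celf2 at 48 h (0.946 ± 0.511 against 0.368 ± 0.035) and at 72 h (0.869 ± 0.285 against 0.196 ± 0.132). The Celf1 call (1.21, adjusted p = 0.0247) rests on the control of animal 2, without which the difference was 0.31 (adjusted p = 0.505), and it was also lost without the injured leg of animal 5 (adjusted p = 0.0637), with upper quartile scaling (0.56, adjusted p = 0.347) and with quantile normalization (0.05, adjusted p = 0.938). The Celf2 row at 48 h (1.03, adjusted p = 0.0365) lost its call in 5 of the 7 fits that left out 1 library, those without control 2, 4 or 5 or injured 4 or 5, and its direction with quantile normalization (−0.22, adjusted p = 0.657). At 72 h (1.82, adjusted p = 5.4e-06) quantile normalization gave 0.31 (adjusted p = 0.381) and no single library ended the call. With each mouse as a replicate block this row was also called at 7 days (1.30, adjusted p = 0.0133). The genes most like Celf1 over the 18 group means were Rad23b (r = 0.985), a nucleotide excision repair protein, Cacul1 (0.977) and Edem3 (0.966), which acts in the degradation of misfolded glycoproteins. Those most like Celf2 were Rfc1 (0.970), the large subunit of the clamp loader of DNA replication, Usp46 (0.958), a deubiquitinase, and Stxbp5 (0.955), a syntaxin binding protein. Celf1 and Celf2 correlated with each other at 0.81.

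Of the Rbfox pair, Rbfox1 is the main gene of adult fibers and Rbfox2 its broadly expressed relative. Rbfox1 also had 2 rows with different starts in the isoform table, on chromosome 16 of mm9, plus strand, and nearly all of its level lay in one. The downstream row, chr16:7069928-7412573, averaged 33.9 ± 8.55 FPKM in control legs and 26.2 ± 7.43 in injured legs, and the upstream row, chr16:5884886-7412573, 0.0563 ± 0.0447 and 0.0457 ± 0.0354. The 250 bases before each start are shown because one start was used in this muscle and the other hardly at all, with the same motifs in capitals.
Rbfox1 upstream start, chr16:5884636-5884885: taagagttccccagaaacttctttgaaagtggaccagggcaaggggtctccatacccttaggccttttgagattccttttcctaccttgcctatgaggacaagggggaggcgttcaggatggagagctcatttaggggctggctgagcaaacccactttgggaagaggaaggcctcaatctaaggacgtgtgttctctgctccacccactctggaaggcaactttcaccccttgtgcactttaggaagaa
Rbfox1 downstream start, chr16:7069678-7069927: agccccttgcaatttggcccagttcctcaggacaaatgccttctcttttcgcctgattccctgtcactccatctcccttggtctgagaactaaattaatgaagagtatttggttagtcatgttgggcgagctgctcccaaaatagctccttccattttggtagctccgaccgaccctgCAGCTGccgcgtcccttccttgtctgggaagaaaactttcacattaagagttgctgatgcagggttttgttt

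The G and C content of the 2 stretches was 51.2% and 48.4%. Before the used start there is 1 match to CAGCTG, a word held by 12.4% of all windows, and before the other start none of the 4 words occurs. GENCODE has Rbfox1 transcripts that begin at the downstream start and none that begin at the upstream one, from which its nearest Rbfox1 transcript start lies 924429 bases away.

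Rbfox1 was lower in the injured leg in 31 of 36 mice, and its injured mean was below its control mean at all 9 time points. At 3 h the injured legs held 20.1 and 21.6 FPKM and the control legs 34.8, 36.7 and 39.2 (log2 difference −0.82 ± 0.42, adjusted p = 0.437). At 48 h they held 25.9, 34.9 and 37.6 against 38.3 to 47.0, and at 21 days 24.1, 24.7, 24.8 and 30.6 against 32.8, 33.6 and 34.2. The groups did not overlap at these 3 times, and none passed the test. At 3 h, with 2 against 3 libraries, Mbnl1, Mbnl2, Celf1, Celf2 and Rbm24 were lower without overlap too. The median of all genes was then −0.28.

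The difference in Rbfox1 passed at 7 days, with 4.68, 27.1 and 29.1 FPKM in injured and 17.7, 32.0, 34.3 and 44.8 in control legs (−0.97 ± 0.35, adjusted p = 0.0247). It stayed under 2-fold, with 0.0727 as the adjusted p under the replicate block, and it rests on animal 2: with that animal's 7-day libraries left out it was −0.38 (adjusted p = 0.332). It also no longer passed without the control of animal 4 or 5. It was called lower with upper quartile scaling (−1.22, adjusted p = 0.00369), with quantile normalization (−1.18, adjusted p = 0.00838) and with all controls pooled (−1.07, adjusted p = 0.00136), and the adjusted p over all alternatives ran from 0.00136 to 0.890. At 72 h the injured legs held 8.81 to 29.7 and the control legs 7.34 to 30.2 FPKM (−0.28 ± 0.29, adjusted p = 0.377). Relative to other genes at 72 h Rbfox1 was lower: it was called lower with upper quartile scaling (−1.19, adjusted p = 0.000218) and with quantile normalization (−1.14, adjusted p = 0.000797), and over all alternatives its adjusted p ran from 0.000161 to 0.878.

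Rbfox2 was higher in the injured leg in 32 of 36 mice. The median of all genes was itself higher in injured legs from 10 h (0.20) to 14 days (0.17), so this count is not particular to Rbfox2. Injured legs at 48 h held 10.88, 11.04 and 12.7 FPKM and the control legs 5.74, 6.78, 6.84 and 7.02, with no overlap (0.80 ± 0.40, adjusted p = 0.0834). At 72 h they held 8.0, 9.78, 10.3, 10.7 and 12.1 against 0.414, 6.30, 6.31, 6.44 and 7.11 FPKM, and Rbfox2 was called (1.36 ± 0.33, adjusted p = 0.000218). The call rests on the control of animal 2, at 0.414 FPKM: without it the difference was 0.62 (adjusted p = 0.00762), still higher and under 2-fold. With the 7-day libraries of animal 2 left out too, Rbfox2 passed at each time from 10 h to 14 days at 0.46 to 0.80 (adjusted p 8.33e-05 to 0.0334), each under 2-fold. That fit was chosen after seeing the data, and the share of all genes passing in it is not given here. With upper quartile scaling the difference at 72 h was 0.49 (adjusted p = 0.116) and with quantile normalization 0.19 (adjusted p = 0.494), and over all alternatives the adjusted p ran from 1.41e-05 to 0.494. At 14 days the injured legs still held 9.03 to 14.0 against 6.47 to 9.26 FPKM (0.55 ± 0.33, adjusted p = 0.378).

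The share of Rbfox2 in the sum of both genes makes the comparison free of library scaling, and it was higher in the injured leg in 35 of 36 mice. In control legs the share averaged 13.6% to 19.1% at the 9 time points. In injured legs it was 19.6% ± 2.2 at 3 h (n = 2), 21.8% ± 3.4 at 10 h (n = 5), 26.5% ± 5.6 at 48 h (n = 3), 37.9% ± 8.7 at 72 h (n = 5), 37.4% ± 8.4 at 7 days (n = 3), 30.2% ± 5.5 at 14 days (n = 5) and 20.5% ± 1.7 at 28 days (n = 5). The legs did not overlap at 3, 24, 48 and 72 h, 7 days and 28 days.

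On the log2 scale the ratio of Rbfox2 to Rbfox1 at 72 h was −0.73 ± 0.53 in injured and −2.37 ± 0.84 in control legs (n = 5 each; exact permutation p = 0.00794, the smallest 5 against 5 allows, adjusted 0.0571). At 28 days, when no member passed the test of its level, it was −1.95 ± 0.15 against −2.30 ± 0.17 (n = 5 each; exact permutation p = 0.00794, adjusted 0.0571). Of the 36 ratio tests, over 4 ratios and 9 times, 15 had an exact p under 0.05 and 0 an adjusted p under 0.05, with 0.0571 the smallest adjusted value. Rbfox2 to Rbfox1 gave 7 of the 15, and Mbnl3 to Mbnl1, where the added 0.1 FPKM exceeds the control level of Mbnl3, gave 3.

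**Figure D4:**
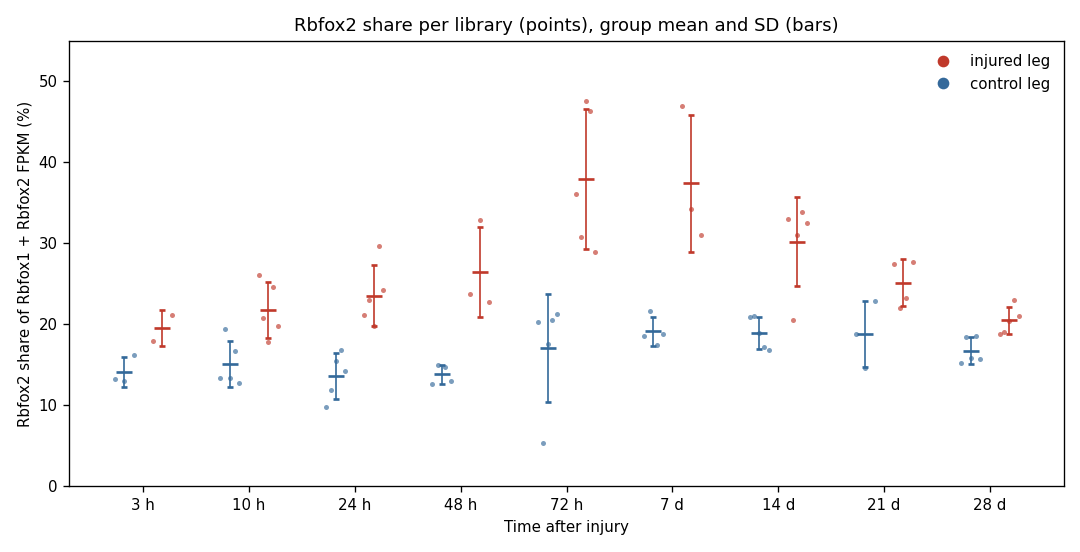
Share of Rbfox2 in the sum of Rbfox1 and Rbfox2 FPKM (percent, from 0) per library against time after injury, injured legs in red and control legs in blue, with group mean and SD. The injured legs peak at 37.9% at 72 h while the control means stay between 13.6% and 19.1%.

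One of the 2 Rbfox2 isoform rows, chr15:76909420-76984242, was tested and called higher at 48 h (2.94 ± 1.15 against 0.689 ± 0.378 FPKM) and at 72 h (2.66 ± 0.847 against 0.651 ± 0.473). Without the injured leg of animal 4 the adjusted p at 48 h was 0.0501, no single library ended the call at 72 h, and with quantile normalization neither passed (adjusted p = 0.125 and 0.0929). The genes most like Rbfox2 over the 18 group means were Acap3 (r = 0.963), Hspg2 (0.955), which encodes the basement membrane proteoglycan perlecan, and Pkd2 (0.954), a calcium channel. Those most like Rbfox1 were C2cd2 (0.952), Stat5b (0.944), a transcription factor of growth hormone signaling, and Map2k4 (0.944), a kinase of the JNK pathway. Rbfox1 correlated with Mbnl1 at 0.76 and with Rbm24 at 0.78, and with Rbfox2 at −0.09. Rbfox2 correlated at 0.70 with the macrophage sum and at 0.76 with the sum of 2 smooth muscle genes (Myh11 and Acta2) and at 0.69 with the sum of 4 fibroblast genes (Pdgfra, Col1a1, Col3a1 and Dcn), which ran from 76.5 to 164.7 FPKM in control legs and from 342.7 to 613.5 in injured legs at 72 h. The part of fibers and of these cells in the levels of Rbfox1 and Rbfox2, and in their ratio, was not tested.

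Rbm24, a muscle protein needed in heart and skeletal muscle for inclusion of muscle exons, stood low at 3 h and high at 10 h without passing at any time. Without the control of animal 2 at 72 h and both legs of animal 2 at 7 days, it passed at both (adjusted p = 0.0105 and 0.00419), still under 2-fold. The differences themselves, −0.79 and 0.49, did not change in that fit, which shares 1 spread per gene over all times. It was chosen after seeing the data, and the share of all genes passing in it is not given here. The median of all genes moved the same way, −0.28 at 3 h and 0.20 at 10 h. The single Rbm24 isoform row carried 100% of the gene level. With upper quartile scaling that row gave −0.53 at 3 h and 0.20 at 10 h (adjusted p = 0.629 and 0.512). At 3 h the injured legs held 15.8 and 22.4 FPKM and the control legs 30.1, 33.5 and 33.9 (−0.79 ± 0.32, adjusted p = 0.335). At 10 h they held 34.2, 38.2, 42.4, 54.3 and 60.2 against 27.2 to 36.8 FPKM (0.49 ± 0.22, adjusted p = 0.118), higher in 5 of 5 mice. The change between these times, 1.27 ± 0.39, did not pass (adjusted p = 0.0794), and it passed with the replicate block (1.24, adjusted p = 0.0443). The legs overlapped at 72 h, with 17.8 to 28.4 against 7.78 to 32.0 FPKM (0.12 ± 0.22, adjusted p = 0.644), while scaling to the upper quartile gave −0.80 (adjusted p = 0.000387). At 28 days the injured leg was lower in 5 of 5 mice, at 27.5 ± 3.36 against 32.3 ± 5.46 FPKM, without passing (−0.22 ± 0.22). The genes most like Rbm24 were Mark3 (r = 0.945), a microtubule affinity regulating kinase, Tada2b (0.936) and Rprd1b (0.930).

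From 72 h to 7 days the injury difference of 3 members fell, as it did in 40% of all genes tested. Ptbp1 fell from 3.54 to 1.38, a change of −2.16 ± 0.54 (adjusted p = 0.00229). Celf1 went from 0.91 to −0.22 (−1.13 ± 0.45, adjusted p = 0.0387) and Celf2 from 0.99 to 0.09 (−0.90 ± 0.31, adjusted p = 0.0201). Of the 3, Ptbp1 passed under each of the 5 alternatives tried for this contrast, with 0.000598 to 0.00388 as the range of its adjusted p. With the replicate block Celf2 did not pass (adjusted p = 0.0570), and 5 member changes passed in all, those of Ptbp1, Celf1 and Mbnl2 from 72 h to 7 days and those of Mbnl2 and Rbm24 from 3 h to 10 h, when 0.76% of all genes had passed upward without the block.

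The uninjured legs were not level either. Over the 9 control groups an F test in limma passed for Mbnl2 (adjusted p = 0.00105) and Celf2 (adjusted p = 0.0220), as it did for 21.5% of genes tested. Without the control of animal 2 at 72 h and the 7-day libraries of animal 2, Celf1 passed as well (adjusted p = 0.0192, against 0.242 with all libraries). Mbnl2 in control legs ran from 49.5 FPKM at 10 h to 26.7 at 28 days, a wider range than its injury difference at any time. Celf2 ran from 8.15 FPKM at 48 h to 4.21 at 72 h. The genes most like Mbnl2 were Tmem57 (r = 0.947), Tacc2 (0.943) and 2310057M21Rik (0.942), and those most like Mbnl1 were C230091D08Rik (0.906), Gzmm (0.889) and Zfp91 (0.864).

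The lists of splicing genes below were chosen with results of these data known. At 72 h 21 of 24 hnRNP protein genes tested were called higher, 17 of 21 SR proteins and their kinases, 30 of 46 core spliceosome genes and 14 of 26 other tissue-regulated splicing factors, against 50.2% of all genes, with median log2 differences of 1.41, 1.44, 1.2 and 1.09 against 1.01. At 7 days the counts were 1 of 24, 2 of 21, 4 of 46 and 2 of 26, against 21.6%. Ptbp3, a paralog of Ptbp1, rose from 0.940 ± 0.262 to 14.0 ± 5.98 FPKM at 72 h (log2 difference 3.70), a change of the size of that of Ptbp1, and Fmr1 (2.12) and Khdrbs1 (1.89) followed in the same list. The largest rises among hnRNP genes were those of Hnrnpf (2.56), Hnrnpa0 (2.03) and Ewsr1 (1.98), among SR genes those of Srsf9 (2.35), Tra2a (1.94) and Srsf2 (1.81), and among spliceosome genes those of Sf3b4 (2.56), Sf3b3 (2.33) and U2af2 (2.04).

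**Figure D5:**
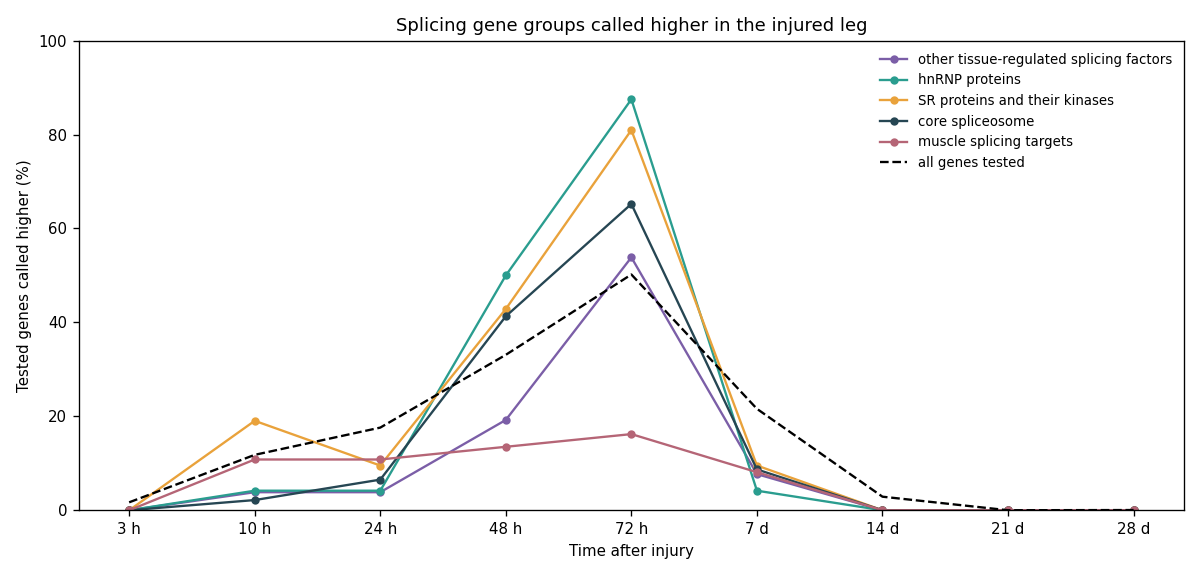
Percentage of tested genes called higher in the injured leg (vertical axis, 0 to 100) against time after injury for 5 gene groups, with all genes tested as a dashed line. At 72 h the hnRNP, SR and spliceosome groups stand above the dashed line of 50.2% and the muscle splicing targets below it.

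Of 37 genes tested that are known as splicing targets in muscle, 6 were called higher at 72 h, against 50.2% of all genes, with a median difference of 0.06 against 1.01. They were Fn1 (4.71), Tnnt2 (3.83), Actn1 (3.81), Enah (1.58), Pdlim3 (1.53) and Camk2d (1.31). Fn1 encodes fibronectin, Tnnt2 the cardiac form of troponin T and Actn1 a non-muscle alpha-actinin. Of the 10 targets with 2 or more isoforms tested, unequal change of isoforms (diffSplice) passed for Rtn4 at 10 h, where 2.2% of genes passed, for Capzb and Rtn4 at 24 h (5.41%), for Pdlim5, Capzb, Tpm1 and Rtn4 at 48 h (8.36%), for Capzb, Tpm1 and Rtn4 at 72 h and for Capzb and Rtn4 at 7 days. Tpm1 encodes an alpha-tropomyosin with muscle and general isoforms, and Capzb the beta subunit of the actin capping protein. Which exons differ between these rows was not analysed here.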

How the data were processed

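RNA from a portion of each tibialis anterior muscle was sequenced as strand-specific libraries. Per the study's methods and the labels, the authors aligned reads to mm9 with TopHat and made the deposited FPKM values with Cufflinks and Cuffdiff, and whether Cuffdiff's library scaling is in them is not given in the sources used here. FPKM tables hold no counts, so depth is unknown and no counting interval is given. Of 80 library columns, 2 pairs at 24 h (libraries A and B of animal 3, per leg) were averaged and 2 were left out (one 7-day injured library, and one control library without a usable time label), which leaves 76. Animal numbers mark separate mice within a time point and recur between time points, so animal 2 at 72 h and animal 2 at 7 days are different mice. In addition, 12 labelled samples were not analysed here. The members and the gene lists were chosen with earlier results of these data known.

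Gene levels were tested on log2(FPKM + 0.1) with limma 3.58.1 (R 4.3.3), with 18 groups in 1 fit, 12099 genes (those averaging 1 FPKM or more in some group) and Benjamini-Hochberg adjustment over them. A call needed an adjusted p under 0.05 and 2-fold. Fold changes on this scale understate those of low genes. For isoform rows that minimum was 0.5 FPKM. Ratios of paralogs, with 0.1 FPKM added to each gene, were tested with exact two-sided permutation tests. Scripts were tested on simulated data. Alternatives were the pseudocount, the filter, the scaling, library weights, pooled controls, single libraries left out and a replicate block. The block rests on both legs coming from 1 mouse: over 36 pairs the correlation of the legs' deviations from their group means ran from −0.283 to 0.673, with a median of 0.149. Named like-patterned genes were the 3 with the highest Pearson correlation over group means.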

Additional observations from a re-analysis of the deposited data

Results flagged for a closer look

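Of 117 sets looked at, each 1 member in 1 group of 4 or 5 libraries, 11 held a library far from the rest. Chance would give about 1 in 20, or 5.85, if the sets were independent. Members share libraries, so they are not. The control of animal 2 at 72 h accounts for 4 of them: it held 2.20 FPKM of Celf1 (others 11.4 to 13.2), 0.359 of Ptbp1 (others 1.62 to 2.04), 7.34 of Rbfox1 (others 24.3 to 30.2) and 0.414 of Rbfox2 (others 6.30 to 7.11). The control of animal 2 at 7 days held 3.82 FPKM of Celf1 (others 15.6 to 16.3). The injured leg of animal 5 at 28 days was high for Ptbp1, at 4.79 FPKM (others 1.44 to 2.11), and for Rbfox1, at 33.1 (others 24.6 to 26.7). The remaining libraries were the injured leg of animal 1 at 21 days for Rbfox1 (30.6 FPKM, others 24.1 to 24.8), the control of animal 5 at 24 h for Mbnl3 (0.0607, others 0.00856 to 0.0206), and for Celf2 at 28 days the control of animal 1 (5.46, others 4.65 to 4.82) and the injured leg of animal 4 (4.06, others 4.66 to 4.78).

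The injury difference itself differed between 72 h and 7 days for 3 members in limma, by −2.16 on the log2 scale for Ptbp1 (adjusted p = 0.00229), −1.13 for Celf1 (adjusted p = 0.0387) and −0.90 for Celf2 (adjusted p = 0.0201).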

How the results depend on the processing

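Leaving out the control of animal 2 at 72 h and both legs of animal 2 at 7 days, some scalings of successive changes, control legs and isoforms, and the fiber sum without zeros were chosen after seeing the data. Below, the libraries of animal 2 are that 72 h control and those 7-day legs alone, which came from different mice. Depth is unknown, so it sets no stated limit. The number of members called at 10 h was 1 and became 2 with no fold threshold. At 48 h it was 1, and became 2 with no filter (Mbnl3 added) and with the replicate block or no fold threshold (Celf1 added), and 3 with all controls pooled (Celf1 and Celf2 added). At 72 h it was 2, and became 1 with each time point fitted alone, with library weights, with pooled controls and without the libraries of animal 2 (Rbfox2 lost in each), 5 with no fold threshold, 3 with no filter (Mbnl3 added) and 3 with a pseudocount of 0.01 (Celf2 added, 1.01). It stayed at 2 with quantile normalization and upper quartile scaling, but with Rbfox2 lost and Rbfox1 called lower. At 7 days it was 1, and became 2 with no filter (Mbnl3 higher) and with upper quartile scaling, pooled controls or no fold threshold (Rbfox1 lower in each), and 0 with each time point alone or without the libraries of animal 2. It stayed at 1 with quantile normalization, with Ptbp1 lost and Rbfox1 called lower. At 14 days it was 0, and became 1 with library weights and with pooled controls (Ptbp1). The count of successive changes was 3, and became 1 with quantile normalization or upper quartile scaling, 5 with the replicate block and 6 without the libraries of animal 2. Isoform level calls went from 14 (13 higher, 1 lower) to 8 with a pseudocount of 1 and to 7 with quantile normalization, of which 3 were higher (Ptbp1) and 4 lower, with Rbfox1 at 72 h and 7 days and Celf1 at 7 days added. Upper quartile scaling gave 10, of which 7 were higher and 3 lower, with Rbfox1 added at 72 h and 7 days, and the replicate block 16.

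The difference of Celf2 turned to −0.29 (quantile) and −0.17 (upper quartile) at 48 h and to −0.19 (quantile) at 72 h. Quantile and upper quartile scaling each gave the opposite direction in 13 of 72 member and time pairs. With single libraries left out, the count ran from 1 to 2 at 48 h, from 1 (without control 2) to 4 (without control 1, 3, 4 or 5) at 72 h and from 0 (without injured 2) to 2 at 7 days, isoform level calls from 11 to 16 and isoform use calls from 0 (without injured 2, control 4 or control 5 at 7 days) to 1. Under the replicate block 7 member calls were made, the 6 without it and Celf1 at 48 h. The causes were not tested.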
